A study of Rattus norvegicus with 6 samples.

Results

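Chromosome 5 of the rat was examined for its contacts with a gene promoter on chromosome 13, in a circular chromosome conformation capture (4C-seq) series of cardiac endothelial cells. Its members are all table entries placed on chromosome 5 of the genome build rn5: 48683 EcoRI restriction fragments, of 759990 fragments on the 20 chromosomes other than 13 and of 794285 entries per library on average with chromosome 13 included. There were 6 libraries, 3 from SS13BN rats (labelled SS-13BN/Mcwi) and 3 from SS rats (labelled SS/JrHsdMcwi). SS is the Dahl salt-sensitive inbred strain, and SS13BN is a consomic strain that carries chromosome 13 of the Brown Norway rat in the SS background. Chromosome 5 is therefore of SS origin in both strains, and the chromosome that holds the viewpoint is what differs. In both strains the cells were at passage 2, came from males and females pooled, and were fixed with 2% formaldehyde for 10 min. Nothing in the labels ties a library to its own animal or culture, so the p-values rest on the spread from library to library, and that spread may be technical.

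In 4C-seq, fixed chromatin is cut with a restriction enzyme, the cut ends are ligated within each crosslinked piece, and the fragments joined to the chosen viewpoint are amplified and sequenced. Most joined fragments usually lie on the viewpoint's own chromosome, because each chromosome occupies a territory of its own in the nucleus. Contacts with another chromosome are spread thinly over long stretches and tend to group in the gene-rich, active parts of that chromosome, so they are read as the share of fragments captured in a stretch rather than fragment by fragment.

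The deposited value is a score per fragment. It sets the captured fragments in a running window of neighbouring fragments against the captured share of that chromosome, so it is relative to chromosome 5 itself. Its arithmetic could be solved backwards to show which fragments were captured, and the levels below are counts of captured fragments. A ratio to the library is the captured share of a stretch divided by that library's captured share on all chromosomes other than 13, so 1 means average capture. Library shares ran from 8.76% in SS13BN 3 to 17.4% in SS13BN 2, and 4C-seq without molecular identifiers gives counting intervals that cover counting error only.

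Chromosome 5 was captured slightly more often than the other chromosomes in every library, with close strain means. Of its 48683 fragments, 5516 were captured in SS13BN 1 (11.3%, 95% Wilson interval 11.1% to 11.6%), 8727 in SS13BN 2 (17.9%, 17.6% to 18.3%) and 4498 in SS13BN 3 (9.24%, 8.99% to 9.50%). In the SS libraries, 6796 were captured in SS 1 (14.0%, 13.7% to 14.3%), 5017 in SS 2 (10.3%, 10.0% to 10.6%) and 6192 in SS 3 (12.7%, 12.4% to 13.02%). The strains overlapped, with both the highest and the lowest library in SS13BN. Divided by the captured share of the other chromosomes apart from 13, the level of chromosome 5 was 1.15, 1.03 and 1.06 in SS13BN 1, 2 and 3, against 1.14, 1.03 and 1.07 in SS 1, 2 and 3. The strain means of this ratio were 1.08 ± 0.0646 in SS13BN and 1.08 ± 0.0541 in SS (SD, n = 3 each). In both strains the library numbered 1 had the highest ratio and the library numbered 2 the lowest. By mean ratio over the 6 libraries, chromosome 5 ranked 7 of 20 chromosomes.

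The strain comparison asked whether the origin of chromosome 13 went with a different amount of contact on chromosome 5. Captures on chromosome 5 made up 6.89% ± 0.383 of all captures outside chromosome 13 in SS13BN and 6.90% ± 0.321 in SS (SD, n = 3 each). The difference, SS13BN minus SS, was -0.0132 percentage points, with p = 0.9 by an exact two-sided permutation test whose smallest possible p is 0.1. In a limma fit over the 20 chromosomes the log2 difference was -0.0032 (SE 0.029, 95% half-width 0.059, adjusted p = 0.953). The share of chromosomes called in that fit was 0%.

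Capture depended on fragment length on chromosome 5. The share captured, as a mean over 6 libraries, was 6.70% ± 1.41 for fragments under 500 bp, 9.02% ± 2.83 from 500 to 999 bp and 11.0% ± 3.21 from 1000 to 1999 bp (SD, n = 6). It was 14.1%, 17.2% and 16.8% in the 3 longer classes, so long fragments were captured more often than short ones. The median fragment was 2223 bp on chromosome 5 and 2187 bp on the other chromosomes apart from 13. With the expected capture set by length class, the ratio of chromosome 5 to the rest was 1.15, 1.02 and 1.05 in SS13BN 1, 2 and 3, against 1.13, 1.03 and 1.07 in SS 1, 2 and 3, close to the values without that adjustment. The 14 fragments over 50000 bp were captured in 0 libraries, among them 1 entry of 5041713 bp from 5020662 to 10062374.

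The contacts were uneven along the chromosome. The last stretch, from 120 Mb to the end, was captured more often than the part below 120 Mb in all 6 libraries. The shares above and below 120 Mb were 15.0% and 9.82% in SS13BN 1, 20.3% and 16.96% in SS13BN 2, and 10.1% and 8.88% in SS13BN 3. They were 17.3% and 12.6% in SS 1, 11.7% and 9.73% in SS 2, and 14.5% and 11.996% in SS 3. The ratio of the shares was 1.53, 1.20 and 1.14 in SS13BN 1, 2 and 3, against 1.38, 1.20 and 1.21 in SS 1, 2 and 3, with a mean of 1.28 ± 0.149 (SD, n = 6). With expectation set by fragment length the mean was 1.22 ± 0.145. The boundary at 120 Mb was placed after the values were seen, so this ratio is a description and has no test. Below 120 Mb, chromosome 5 was close to the level of the other chromosomes, at 0.9995, 0.975 and 1.02 in SS13BN 1, 2 and 3, against 1.03, 0.976 and 1.01 in SS 1, 2 and 3.

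**Figure D1:**
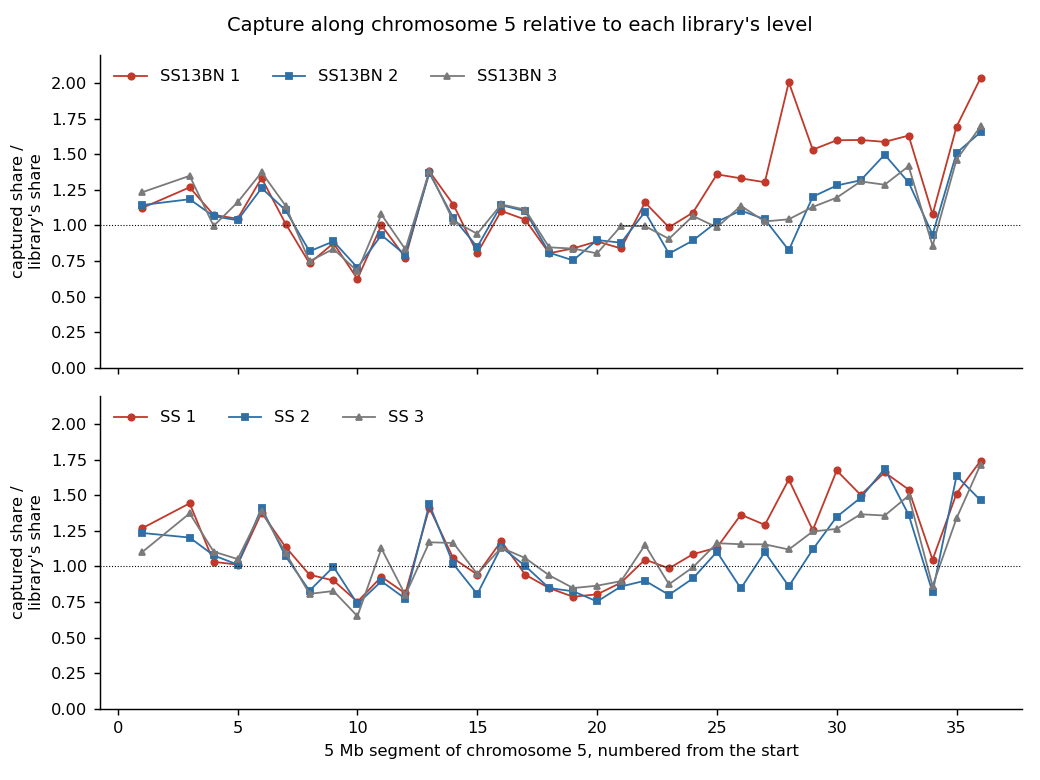
Captured share of each 5 Mb segment of chromosome 5 divided by the library's captured share outside chromosome 13 (y axis, ratio), against the segment's number from the start of the chromosome (x axis). SS13BN libraries are in the upper panel and SS libraries in the lower one, 1 line per library, and segments with under 20 fragments are left out. Lines of all 6 libraries run below 1 in the segment from 45 Mb and above 1 in the last segment, and SS13BN 1 and SS 1 stand above the others of their strain in the segment from 135 Mb.

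In steps of 5 Mb, the lowest level was at 45 to 50 Mb, with a ratio to the library of 0.69 ± 0.05 (SD, n = 6), and the range over libraries was 0.62 to 0.75. The segments at 35 to 40 Mb and 55 to 60 Mb were also low, at 0.81 and 0.80. Over the long stretch from 30 to 60 Mb the ratio was 0.859 ± 0.0251 in SS13BN and 0.889 ± 0.0174 in SS (SD, n = 3 each). That stretch was not low throughout, with 1.09 at 30 to 35 Mb and 0.99 at 50 to 55 Mb. Below 120 Mb the high segments were 25 to 30 Mb and 60 to 65 Mb, both at 1.36, and 10 to 15 Mb at 1.30. From 145 to 165 Mb the segments ran between 1.39 and 1.51, the segment at 165 to 170 Mb was at 0.93, and the last one, from 175 Mb to the end, was at 1.72 ± 0.18 over 451 fragments. In the 12 segments from 120 Mb, SS13BN 1 was the highest SS13BN library in 12 and SS 1 the highest SS library in 9. In the 23 segments below 120 Mb the same libraries were highest in 6 and 9.

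The strongest capture on chromosome 5 fell on a stretch of 0.9 Mb, from 136900001 to 137800000, and the libraries differed widely there. It was the longest run of 100 kb steps with a mean ratio to the library of at least 2, a rule set after the values were seen, so its level is a description. Of its 206 fragments, 118 were captured in SS13BN 1 (57.3%, Wilson interval 50.5% to 63.8%), 54 in SS13BN 2 (26.2%) and 48 in SS13BN 3 (23.3%). In SS, 111 were captured in SS 1 (53.9%, 47.1% to 60.6%), 30 in SS 2 (14.6%) and 78 in SS 3 (37.9%). SS13BN 1 and SS 1 stood far above the other libraries of their strains, and the strains overlapped. The ratio to the library ranged from 1.46 in SS 2 to 5.78 in SS13BN 1, with means of 3.31 ± 2.21 in SS13BN and 3.002 ± 1.46 in SS (SD, n = 3 each). Its median fragment was 3265 bp, and with expectation set by fragment length the captured number was 2.85 ± 1.53 times the expected one (SD, n = 6).

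**Figure D2:**
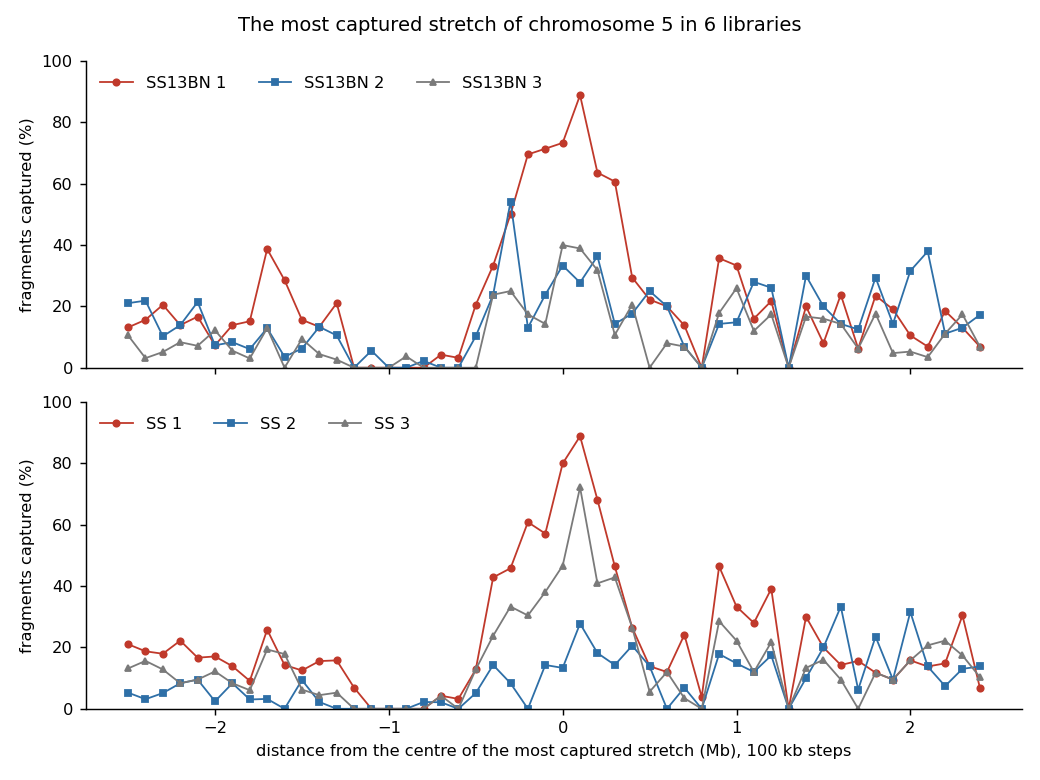
Percent of fragments captured in 100 kb steps (y axis) against the distance in Mb from the centre of the most captured stretch of chromosome 5 (x axis), with the SS13BN libraries in the upper panel and the SS libraries in the lower one, 1 line per library. SS13BN 1 and SS 1 stand above the other libraries of their strain around the centre, and every library is near 0 in the steps of the empty stretch on the lower side.

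In SS13BN 1, SS13BN 3, SS 1 and SS 3, capture was lower at every greater distance from the centre of this stretch than within 0.5 Mb of it, and in SS13BN 2 and SS 2 it was not. Fragments from 136100001 to 136800000 and from 167200001 to 167900000, almost never captured, are left out of these distances. Between 0.5 and 1 Mb on the lower side that left 20 fragments, with 0% captured in every library. Within 0.5 Mb on the lower side the ratio to the library was 5.56, 1.68 and 2.26 in SS13BN 1, 2 and 3, against 4.05, 1.03 and 2.83 in SS 1, 2 and 3. Within 0.5 Mb on the higher side it was 5.23, 1.31 and 2.18 in SS13BN 1, 2 and 3, against 3.83, 1.76 and 2.89 in SS 1, 2 and 3. SS 2 was thus at its average level on the lower side and above it on the higher side. Between 0.5 and 1 Mb on the higher side the ratio was 1.73, 0.685 and 0.937 in SS13BN 1, 2 and 3, against 1.75, 0.822 and 0.816 in SS 1, 2 and 3, so SS13BN 1 and SS 1 alone were above their average at that distance. Between 5 and 10 Mb on both sides all 6 libraries lay between 1.17 and 1.65. Between 10 and 20 Mb on the higher side SS13BN 2 was at 1.33 and SS 2 at 1.49, no lower than on the less captured side of the centre in the same library.

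Leaving out the 0.9 Mb stretch barely changed the level of the whole chromosome. The ratio of chromosome 5 to the rest was then 1.13, 1.03 and 1.05 in SS13BN 1, 2 and 3, against 1.13, 1.03 and 1.07 in SS 1, 2 and 3. The ratio of captured shares above and below 120 Mb was 1.47, 1.19 and 1.12 in SS13BN 1, 2 and 3, against 1.33, 1.198 and 1.18 in SS 1, 2 and 3. The excess towards the end of the chromosome was therefore nearly as large without the stretch in each library.

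Capture was tested in 347 windows of 500 kb with an exact one-sided binomial test per library. To be a contact window of a strain, each of its 3 libraries had to give an adjusted p under 0.05. Chromosome 5 held 4 contact windows in SS13BN, 2 in SS and 0 in both strains. Over all chromosomes other than 13, 1.58% of windows passed in SS13BN, 1.86% in SS and 0.713% in both, so the shares on chromosome 5 were below that background. The test treats fragments as independent, and adjacent windows of chromosome 5 were alike, with a mean Pearson correlation of 0.389 ± 0.113 over the 6 libraries across 343 pairs of neighbouring windows. In single libraries, 40, 33 and 13 windows passed in SS13BN 1, 2 and 3, against 43, 16 and 16 in SS 1, 2 and 3, with the fewest in SS13BN 3. Of all 5332 windows outside chromosome 13, 446, 645 and 174 passed in SS13BN 1, 2 and 3, against 472, 365 and 286 in SS 1, 2 and 3. The share on chromosome 5 was thus above that of all windows in SS13BN 1, SS13BN 3 and SS 1. It was below it in SS13BN 2, SS 2 and SS 3. Each of the 6 contact windows passed in 5 libraries and missed in 1. With expectation set by fragment length, the calls of the windows from 168500001 and 29000001 in SS13BN were kept, and those of the windows from 137000001 and 176500001 in SS13BN and from 169000001 and 62500001 in SS were lost. Windows that passed in at least 5 libraries made up 2.19% of all windows outside chromosome 13, against these 6 of 347 on chromosome 5.

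The contact window with the highest mean ratio ran from 137000001 to 137500000, within the most captured stretch, and its call was 1 of those lost with expectation by length. It held 70, 31 and 26 captured fragments of 101 in SS13BN 1, 2 and 3, against 65, 12 and 43 in SS 1, 2 and 3. The adjusted p of the exact binomial test was 1.17e-42, 0.0113 and 0.000227 in SS13BN 1, 2 and 3, against 1.38e-30, 0.884 and 4.75e-11 in SS 1, 2 and 3. Among 5301 windows with at least 50 fragments outside chromosome 13, it ranked 1, 288 and 7 by ratio in SS13BN 1, 2 and 3, against 1, 1727 and 1 in SS 1, 2 and 3. It was thus the top window of the genome outside chromosome 13 in 3 libraries, while SS 2 captured it near its average rate.

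The other contact windows were lower and far more even between libraries. From 168500001 to 169000000, 22, 33 and 22 of 97 fragments were captured in SS13BN 1, 2 and 3, against 24, 17 and 22 in SS 1, 2 and 3, a ratio to the library of 2.28 ± 0.318 in SS13BN and 1.89 ± 0.126 in SS (SD, n = 3 each). Every SS13BN library passed, and SS 2 missed with an adjusted p of 0.139 in the exact binomial test. From 169000001 to 169500000, 23, 30 and 14 of 84 fragments were captured in SS13BN 1, 2 and 3, against 24, 22 and 20 in SS 1, 2 and 3, a ratio of 2.24 ± 0.459 in SS13BN and 2.31 ± 0.309 in SS. Here every SS library passed and SS13BN 3 missed. These adjacent windows were therefore assigned to different strains by a miss in 1 library each, and the strain difference was not called in either.

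Near the end of the chromosome, from 176500001, the window held 23, 39 and 22 captured fragments of 115 in SS13BN 1, 2 and 3, against 31, 20 and 29 in SS 1, 2 and 3. Its ratio was 2.05 ± 0.121 in SS13BN and 2.01 ± 0.240 in SS (SD, n = 3 each), and SS 2 missed. Nearer the start of the chromosome, the window from 29000001 held 27, 42 and 25 of 127 in SS13BN 1, 2 and 3, against 36, 26 and 23 in SS 1, 2 and 3, and SS 3 missed. The window from 62500001 held 31, 41 and 20 of 121 in SS13BN 1, 2 and 3, against 31, 32 and 27 in SS 1, 2 and 3, and SS13BN 3 missed. In all 3 windows the strains overlapped, and the libraries lay between 1.52 and 2.65 times their own average.

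**Figure D3:**
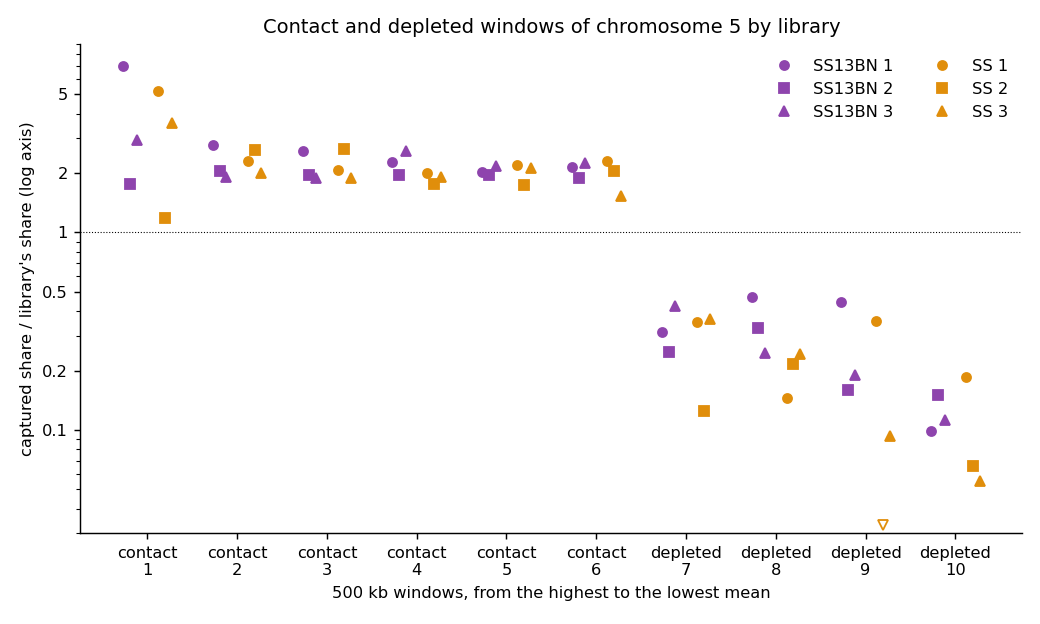
Ratio of captured share to the library's share (log axis) for the 6 contact windows and 4 depleted windows of chromosome 5, with SS13BN libraries left of SS libraries and 1 marker per library. An open triangle at the lower edge marks a window with 0 captured fragments, which is SS 2 in the window from 136000001. Libraries spread widely in the window from 137000001 and lie closer together in the other contact windows.

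With windows of 1 Mb, 5 of 175 windows on chromosome 5 passed in all 6 libraries, beside 3.28% of all windows outside chromosome 13. They began at 176000001, 153000001, 62000001, 172000001 and 30000001. Their mean ratios to the library were 1.90 ± 0.140, 1.87 ± 0.207, 1.83 ± 0.269, 1.75 ± 0.0505 and 1.58 ± 0.110 in that order (SD, n = 6). The window from 172000001 was the most even of them, with libraries between 1.70 and 1.83. The window from 137000001 had the highest mean at this size, 2.71 ± 1.44, but passed in 5 libraries. With expectation set by fragment length, the 1 Mb window from 176000001 still passed in 6 libraries. The one from 30000001 then passed in 5, and those from 153000001, 62000001 and 172000001 passed in 4.

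A score of at least 3 in all 6 libraries was reached by 663 fragments of chromosome 5 in 29 runs, beside 3.89% of fragments outside chromosome 13. Because each score is set against chromosome 5 itself and shares its window with its neighbours, these runs carry no test. The longest ran from 171688479 to 172611232 (923 kb, 165 fragments), with highest scores of 6.23, 8.52 and 4.43 in SS13BN 1, 2 and 3, against 5.68, 7.11 and 4.06 in SS 1, 2 and 3. The next was from 169015701 to 169826568 (811 kb, 157 fragments), followed by 29791994 to 30123675 (332 kb), 169964495 to 170283063 (319 kb) and 153242070 to 153436531 (194 kb). Shorter runs followed at 152579700, 152507341, 172785115, 161715432 and 63258498. No run lay in the most captured stretch. The single highest score of the chromosome was nevertheless just above it in 3 libraries, at 137865850 to 137867222, with 17.2 in SS13BN 1, against 14.6 in SS 1 and 7.41 in SS 3. The highest score lay at 170057667 in SS13BN 2 (9.46), at 169422710 in SS13BN 3 (5.36) and at 62758323 in SS 2 (7.99).

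Where such runs were joined across gaps under 1 Mb, 4 stretches of at least 0.3 Mb resulted, and their capture is given as a description because the scores chose them. From 171545754 to 172895436 the ratio to the library was 1.79 ± 0.198 in SS13BN and 1.71 ± 0.106 in SS (SD, n = 3 each). From 169015701 to 170283063 it was 1.72 ± 0.443 in SS13BN and 1.77 ± 0.180 in SS, and SS13BN 3 was the lowest library at 1.23. From 152507341 to 153488475 it was 2.02 ± 0.371 in SS13BN and 1.77 ± 0.1998 in SS, and from 28601045 to 30134235 it was 1.54 ± 0.0507 in SS13BN and 1.44 ± 0.115 in SS. In each of the 4 stretches every library was above its own average, and the strains overlapped.

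In steps of 100 kb, 1 more run of at least 5 steps had a mean ratio of at least 2, from 168900001 to 169400000. Of its 83 fragments, 24, 36 and 17 were captured in SS13BN 1, 2 and 3, against 28, 23 and 25 in SS 1, 2 and 3. The ratio was 2.58 ± 0.3001 in SS13BN and 2.68 ± 0.128 in SS (SD, n = 3 each). All libraries lay between 2.34 and 2.92, in contrast to the wide spread over the stretch that ends at 137800000.

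Chromosome 5 also had stretches almost without capture. The depleted windows, defined like contact windows but for fewer captures, numbered 2 in SS13BN, 4 in SS and 2 in both strains. Over all chromosomes other than 13, 2.23% of windows were depleted in SS13BN, 2.68% in SS and 1.89% in both, so chromosome 5, with 347 windows, had fewer than that share in each case. Of the 305 fragments from 167000001 to 167500000, 3, 8 and 3 were captured in SS13BN 1, 2 and 3, against 7, 2 and 2 in SS 1, 2 and 3. The next window, from 167500001, held 13, 16 and 6 of 279 in SS13BN 1, 2 and 3, against 5, 6 and 8 in SS 1, 2 and 3. With expectation set by fragment length, the call of the window from 167500001 was lost in SS13BN. Both were far below average in all 6 libraries, at mean ratios of 0.111 ± 0.04997 and 0.274 ± 0.113 (SD, n = 6).

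The core of that region, from 167200001 to 167900000, was marked by short fragments. It held 430 fragments with a median of 1001.5 bp, and 6, 10 and 2 were captured in SS13BN 1, 2 and 3, against 3, 2 and 3 in SS 1, 2 and 3. With expectation set by length class the captured number was 0.1003 ± 0.0525 of the expected one (SD, n = 6), so the level was low for fragments of this length too. Scores were at most -3 in all 6 libraries over 390 fragments from 167233149 to 167896526. Such scores were held by 487 fragments of chromosome 5 in all, beside 3.97% of fragments outside chromosome 13, and 85 of them lie at the start of the chromosome, where the running window has fewer fragments. Within the core, 166 consecutive fragments, from 167243369 to 167498823, were captured in 0 libraries. Over the 1 Mb below the core the ratio was 1.07 ± 0.154 in SS13BN and 0.928 ± 0.197 in SS, and over the 1 Mb above it was 1.23 ± 0.190 in SS13BN and 1.06 ± 0.113 in SS (SD, n = 3 each).

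A further empty stretch lay just below the strongest contact. From 136100001 to 136800000, 3, 2 and 2 of 266 fragments were captured in SS13BN 1, 2 and 3, against 5, 2 and 2 in SS 1, 2 and 3. The ratio to the library was 0.0809 ± 0.0355 in SS13BN and 0.0969 ± 0.0483 in SS (SD, n = 3 each). All libraries were low here, including SS13BN 1 and SS 1, which had the highest capture in the stretch from 136900001. In the 1 Mb below, 64, 39 and 24 of 362 fragments were captured in SS13BN 1, 2 and 3, against 59, 17 and 34 in SS 1, 2 and 3. SS13BN 1 and SS 1 were therefore the highest of their strains on both sides of the empty stretch. These runs of 100 kb steps were the only ones of at least 5 steps with a mean ratio of at most 0.3 on chromosome 5.

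The remaining depleted windows were called in SS alone, but each passed in 5 libraries. In the exact binomial test, SS13BN 1 missed in the window from 136000001 (adjusted p = 0.0759). SS13BN 3 missed in the window from 16000001 (adjusted p = 0.154). From 136000001, 8, 5 and 3 of 181 fragments were captured in SS13BN 1, 2 and 3, against 8, 0 and 2 in SS 1, 2 and 3, and a count of 0 in SS 2 allows a share of up to 1.66%. From 16000001, 5, 7 and 6 of 161 were captured in SS13BN 1, 2 and 3, against 7, 2 and 7 in SS 1, 2 and 3. Fragments from 16064673 to 16392870, 116 in a row, were captured in 0 libraries. Across the chromosome, runs of at least 20 consecutive fragments captured in 0 libraries numbered 73 and held 5.15% of its fragments, against 8.28% on the other chromosomes apart from 13.

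The strain test on 500 kb windows asked where along chromosome 5 capture differed with the origin of chromosome 13. In the limma fit over 5296 windows outside chromosome 13, with Benjamini-Hochberg adjustment, 0 of 345 windows of chromosome 5 were called, beside a background of 0%. At an unadjusted p under 0.05 there were 10 of 345, beside 3.02% of all windows, so the share on chromosome 5 was near the background. A 95% interval reached 0.50 to either side on the log2 scale in the median window, so smaller differences could not be told from 0 in a typical window. That interval is for a single window before adjustment, and a call after adjustment over 5296 windows takes a larger difference. In 35 segments of 5 Mb, with a median half-width of 0.20, 0 were called beside 0%, and 0 had an unadjusted p under 0.05 beside 1.64%.

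The window with the smallest p began at 41500001. It held 15, 25 and 14 captured fragments of 184 in SS13BN 1, 2 and 3, against 9, 12 and 6 in SS 1, 2 and 3, with every SS13BN library higher. Its log2 difference was 0.91 (SE 0.30), and limma gave an adjusted p of 0.999. The window from 15500001 ran the other way, with 9, 17 and 9 of 159 in SS13BN 1, 2 and 3, against 16, 19 and 21 in SS 1, 2 and 3, a log2 difference of -0.71 (SE 0.26, limma adjusted p = 0.999). So did the window from 155000001, with 8, 16 and 3 of 102 in SS13BN 1, 2 and 3, against 18, 15 and 11 in SS 1, 2 and 3, a log2 difference of -0.90 (SE 0.34, limma adjusted p = 0.999). None of them passed the test. Windows whose strains did not overlap numbered 12 of 345 with SS13BN higher, beside 4.25% of all windows, and 16 with SS13BN lower, beside 3.55%.

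**Figure D4:**
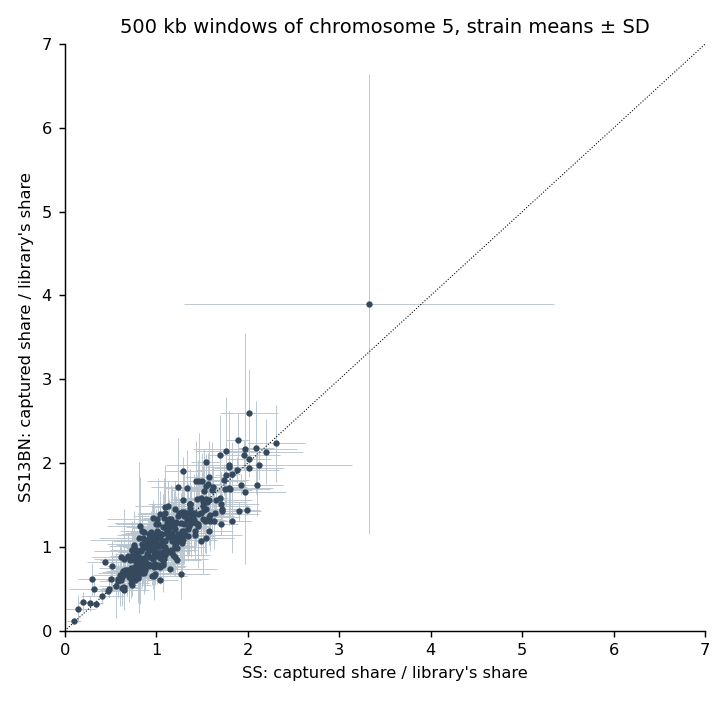
Mean ratio of captured share to the library's share in SS13BN (y axis) against the same in SS (x axis) for 345 windows of 500 kb on chromosome 5, with bars of 1 SD (n = 3 libraries each) and a dotted line of equal values. Windows scatter on both sides of the line, and the window from 137000001 lies far out on both axes with wide bars, at 3.90 ± 2.74 in SS13BN and 3.33 ± 2.02 in SS.

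Single fragments were mostly captured in few libraries. Of the 48683 fragments, 29408 (60.4%) were captured in 0 libraries, 10379 in 1, 4648 in 2, 1990 in 3, 919 in 4, 609 in 5 and 730 (1.4995%) in all 6, beside 1.48% of fragments on the other chromosomes apart from 13 were captured in all 6. The 730 fragments were spread over 279 windows, and 13 lay in the most captured stretch. Their median length was 4564 bp, against 1886 bp for fragments captured in 0 libraries. The part from 120 Mb held 42.5% of them and 29.0% of all fragments of the chromosome.

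Libraries with the same number were on average somewhat more alike on chromosome 5 than libraries of the same strain. Over 345 windows, Spearman's correlation of the captured share averaged 0.700 for the 3 pairs of libraries with the same number from different strains, 0.638 for the 6 pairs of the same strain and 0.651 for the other 6 pairs. The most alike pairs nevertheless had different numbers, SS13BN 2 with SS 3 (0.725) and SS13BN 2 with SS 1 (0.714). The highest same-number pair, SS13BN 1 with SS 1, was at 0.713. All pairs share the fragments and their lengths, so these correlations describe the libraries and have no p. On the other chromosomes the same averages were 0.752, 0.720 and 0.726. Of the 4648 fragments captured in exactly 2 libraries, 720 (15.5%) were shared by SS13BN 2 and SS 2, 410 (8.82%) by SS13BN 1 and SS 1, and 195 (4.20%) by SS13BN 3 and SS 3. Of the pairs with different numbers, SS13BN 2 and SS 3 shared 553 (11.9%) and SS13BN 2 and SS 1 shared 531 (11.4%), so the order did not follow the numbers alone. SS13BN 2 captured the most fragments of all libraries, which raises the number it can share with any other. The labels do not say whether a number marks a shared preparation or sequencing run, and its part in the height of the most captured stretch was not tested.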

How the data were processed

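Chromosome 5 was analysed in 6 libraries, 3 per strain. The authors deposited 1 score per EcoRI fragment and library. The submitters' processing notes name the build rn5 and CASAVA 1.8. For the aligner, read filters and scoring program, nothing is given in the sources used here. From the values, the deposited score is a count of captured fragments in a running window, minus its expectation at the chromosome's captured share, over the binomial SD. Of the odd window lengths from 3 to under 2000 fragments, 501 alone gave whole counts in every library and chromosome other than 13 (largest distance from a whole number 9.7e-08, next best length 0.165). Captured states solved from it rebuilt 100% of scores on all chromosomes other than 13 (tolerance 1e-06). Windows that run past a chromosome's ends are filled with zeros, so the scores of the first and last 250 fragments are low by construction. A captured fragment is presence only: read numbers are not used here.

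Fragments were assigned by midpoint to windows, which are counted from 1. Fragment coordinates are as the tables give them. The strain test was limma 3.58.1 in R 4.3.3, trended over mean level, on log2 of (captured fragments scaled to the mean library total + 1), fitted to all windows outside chromosome 13 with a mean of at least 1 captured fragment, with Benjamini-Hochberg adjustment and a threshold of 0.05. Changes of windows with few captures are understated on this scale. Contact and depleted windows used exact one-sided binomial tests against the library's captured share, adjusted over all windows of a library. Chromosome 5, its windows and the tests were chosen with earlier results of these data known. Text names contact windows of either strain (up to 5 each), depleted windows with the lowest ratios and at least 50 fragments, the 3 windows with the smallest strain p, and the 10 longest runs of score 3 or more. The rule allowed for 5 depleted windows and 4 were found. Other stretches were chosen after their values were seen. The scripts were tested on simulated data. Software was pandas 2.3.3, numpy 2.4.6, matplotlib 3.10.9 and scipy 1.17.1 under Python 3.11.15. The build of the annotation at hand differs from rn5, so no gene is named by position.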

Additional observations from a re-analysis of the deposited data

How the results depend on the processing

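The strain test called 0 windows under every alternative run (the replicate block, another pseudocount, 2 other filters, 2 other scalings, 2 other window sizes and each library left out). It called 0 segments of 5 Mb with the replicate block, the other pseudocount, trimmed mean scaling and each library left out. The same-numbered libraries of the 2 strains deviated from their strain means with correlations of 0.0875, 0.130 and 0.0834 over all windows of the fit and on chromosome 5 alone with 0.205, 0.227 and 0.112, against -0.190 to 0.0102 for different numbers. Deviations cancel out within a strain, so positive values for the same number push those for different numbers down by construction. Since the labels give no pairing and not every correlation over the whole fit passed 0.1, the numbers were not taken to pair libraries. Each library nevertheless correlated best with its own number, and on chromosome 5 alone every same-number correlation passed 0.1. With the replicate block, 0 windows were called, and the smallest limma adjusted p on chromosome 5 was 0.997. At an unadjusted p under 0.05 there were 15 of 345, beside 3.83% of all windows in that fit, so the share was near the background. The log2 difference of the whole chromosome stayed -0.0032 (limma adjusted p = 0.933).

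The sign of that difference was not stable. It was 0.0055 with trimmed mean scaling and ran from -0.0478 to 0.0322 with 1 library left out, and the difference in the share of captures ran from -0.229 (without SS13BN 1) to 0.158 (without SS 1) percentage points. The ratio of captured shares above and below 120 Mb ran from 1.22 to 1.30.

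Counts of contact windows depended on the settings. With expectation set by fragment length they were 2 in SS13BN, from 168500001 and 29000001, and 0 in SS, beside 0.863% and 1.13% of all windows outside chromosome 13. With expectation set by chromosome SS had 0, beside 1.18% of all windows. With 1 Mb windows there were 8 in SS13BN (4.57%), 7 in SS (4%) and 5 in both (2.86%), beside 5.26%, 5.81% and 3.28% of all windows. With 250 kb windows there were 1 in SS13BN and 1 in both (0.145% each), beside 0.301% and 0.103%. At an adjusted p of 0.01 there were 1 in SS13BN and 0 in SS, beside 0.356% and 0.806%. With 1 library left out they ran from 4 to 17 in SS13BN (17 without SS13BN 3, 7 without SS13BN 2). Those 17 and 7 were 4.9% and 2.02% of the windows of chromosome 5, beside 5.23% and 1.82% of all windows. In SS they ran from 2 to 9, with 9 (2.59%) without SS 2, beside 3.08%, and 9 without SS 3, beside 3.71%. In both strains they ran from 0 to 3 (2 without SS13BN 3, 3 without SS 2, 1 without SS 3), beside 1.54%, 0.938% and 1.07% of all windows. Depleted windows numbered 1 in SS13BN and 1 in both with expectation by length and at an adjusted p of 0.01. Of all windows, 1.67% and 1.37% passed with expectation by length, and 1.37% and 1.13% at the stricter threshold. With 1 Mb windows there were 2 in SS and 1 in both, beside 5.07% and 3.5% of all windows. With 1 library left out they ran from 2 to 4 in SS13BN (4 without SS13BN 1 and 4 without SS13BN 3), beside 2.91% and 4.11% of all windows. They ran from 4 to 7 in SS (7 without SS 2, beside 3.68%). In both strains they ran from 2 to 3 (3 without SS13BN 1 and 3 without SS13BN 3), beside 2.06% and 2.29%. Fragments with a score of at least 3 in every library ran from 663 to 1088 with 1 library left out (1088 without SS13BN 3, 1083 without SS 3), and were 3695 at a score of 2 and 96 at 4. Low-scoring fragments ran from 487 to 610 (610 without SS13BN 1) and were 2337 at a score of -2. Over all fragments outside chromosome 13 there were 31954 without SS13BN 1 and 62342 at a score of -2. Leaving out a library relaxes these rules by construction, and the cause of the other shifts was not tested.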

Other observations

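Below 120 Mb, SS13BN 3 was the highest of its strain in 13 of 23 segments of 5 Mb and SS 3 in 11, whereas SS13BN 3 was highest in 0 of the 12 segments from 120 Mb and SS 3 in 1. In the step of 100 kb from 138600001, 0 of 19 fragments with a median length of 4346 bp were captured in any library, although the steps on either side held captures in all 6 libraries. The likeness of windows fell with distance along chromosome 5 up to 5 Mb and was no lower at 10 Mb. The mean Pearson correlation over the 6 libraries was 0.389 ± 0.113 at 0.5 Mb, 0.272 ± 0.101 at 1 Mb and 0.223 ± 0.0369 at 2 Mb. It was 0.115 ± 0.0577 at 5 Mb and 0.138 ± 0.0595 at 10 Mb (SD, n = 6), as a description across windows that share fragment lengths.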
